A study of Mus musculus with 12 samples.

Results

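Osteocrin, C-type natriuretic peptide and the 3 natriuretic peptide receptors were followed in mouse neurons given antidepressants. The genes are Ostn (osteocrin), Nppc (C-type natriuretic peptide), Npr1, Npr2 and Npr3, and they were chosen by symbol: each probe set annotated with exactly 1 of these symbols was taken. All 5 genes were found, with 6 probe sets in all (Npr1 had 2), among 22180 genes with such a probe set. All 5 also passed the filter on low values, which left 17467 genes in the fit. Ostn was picked because its level differed between drugs and control in these arrays, so its drug-control differences are given as a description, with no test.

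Primary neurons were cultured from the embryonic brain of ICR (CD-1) mice, an outbred stock, in serum-free Neurobasal medium with B27 supplement, and total RNA was hybridised to Affymetrix arrays. A drug was present for 48 h, between day 3 and day 5 of culture. The drugs were 2 tricyclics (amitriptyline at 5 µM and imipramine at 5 µM), citalopram at 10 µM, which blocks serotonin uptake, duloxetine at 0.1 µM, which blocks uptake of serotonin and noradrenaline, and the tetracyclic mirtazapine at 50 µM. With a control group, whose own treatment the labels leave out, this made 6 groups of 2 arrays and 12 arrays in all. No label ties a replicate to a culture or an animal, so a p-value here reflects the spread between the arrays of a group, which may be technical. Each drug was given at 1 concentration.

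Osteocrin, also called musclin, is a small secreted peptide best known from bone and skeletal muscle. It binds the clearance receptor encoded by Npr3, which takes natriuretic peptides up from outside the cell, and it does not activate the receptors that make cyclic GMP, so it can spare the natriuretic peptides from removal. Npr1 encodes the guanylyl cyclase receptor for atrial and brain natriuretic peptides, and Npr2 the one for C-type natriuretic peptide, the main natriuretic peptide of the brain. In mouse embryos the Npr2 receptor and the cyclic GMP-dependent kinase encoded by Prkg1 are known for the branching of sensory axons. In human neurons, osteocrin is induced by electrical activity through MEF2 factors, and in mouse muscle it is under the control of insulin and FoxO factors.

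The sequence upstream of a gene's start is shown for Npr3, the receptor gene whose level passed the test under mirtazapine, and for Nppc, the gene of the peptide that Npr2 reads. RefSeq's table for GRCm38.p6 held a window for 4 of the 5 genes (Npr1, Npr2, Npr3 and Nppc). Each window runs from 250 bases before to 50 bases after the start, 5′ to 3′ on the gene's own strand. The Npr3 window is chr15:11907322-11907621 on the minus strand and the Nppc window is chr1:86670524-86670823 on the minus strand. Capitals mark matches to a TATA box (TATAAA) or a CCAAT box (CCAAT, or ATTGG where it lies on the other strand).
Npr3: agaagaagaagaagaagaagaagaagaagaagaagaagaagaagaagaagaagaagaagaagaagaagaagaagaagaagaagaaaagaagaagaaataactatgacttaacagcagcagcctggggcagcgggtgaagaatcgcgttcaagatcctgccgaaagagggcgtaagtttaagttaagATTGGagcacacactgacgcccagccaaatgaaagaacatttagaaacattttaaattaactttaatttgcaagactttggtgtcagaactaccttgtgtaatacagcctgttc
Nppc: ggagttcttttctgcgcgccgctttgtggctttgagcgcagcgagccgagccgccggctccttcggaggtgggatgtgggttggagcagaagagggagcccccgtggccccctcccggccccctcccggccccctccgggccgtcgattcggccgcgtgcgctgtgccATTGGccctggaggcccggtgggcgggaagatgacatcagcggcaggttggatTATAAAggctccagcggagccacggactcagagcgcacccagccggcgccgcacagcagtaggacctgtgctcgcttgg
The windows differed in composition. The Npr3 window began with 28 GAA repeats in a row and was 39% G and C, against a median of 53% over all 32544 windows, whereas that of Nppc was 69.3%, that of Npr1 69.7% and that of Npr2 64%. Both strands were searched for 4 motifs. The cyclic AMP response element (TGACGTCA), held by 1.8% of all windows, and the AP-1 site (TGANTCA), held by 7.79%, had no match in the 4 windows. A TATA box, held by 13.6% of all windows, was found in the Nppc window alone of these 4, and a CCAAT box, held by 37.4%, in those of Npr1, Npr3 and Nppc. These matches describe letters in the windows and are no evidence of a factor's binding.

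Values are log2 intensities after RMA, so a difference of 1 is a doubling, and levels of different probe sets were not set against each other. Ostn was highest under imipramine, with log2 values of 7.45 and 7.42 on replicates 1 and 2. It read 7.21 and 7.24 under amitriptyline, 7.04 and 6.97 under mirtazapine and 6.76 and 7 under citalopram. Under duloxetine it read 5.83 and 6.08, against 5.62 and 6.18 on the control arrays. All 8 arrays of imipramine, amitriptyline, mirtazapine and citalopram were above both control arrays, while those of duloxetine lay between them. Of all genes 2.79% were higher in this way under all 4 of these drugs, which is given as background only, since Ostn was chosen on these differences. In bulk RNA such as this, more cells that express a gene and more RNA per cell cannot be told apart.

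The difference from control in Ostn was 1.54 ± 0.17 log2 units (SE from the fit) under imipramine, a 2.90-fold higher level. It was 1.33 (2.51-fold) under amitriptyline, 1.11 (2.15-fold) under mirtazapine and 0.98 (1.97-fold) under citalopram, each with the same SE. Under duloxetine it was 0.06 (1.04-fold). These sizes depend on a control pair that was itself wide: the 2 control arrays differed by 0.56 (mean 5.90 ± 0.40 SD, n = 2), while imipramine and amitriptyline pairs differed by 0.03 each. Against the higher control array alone, the imipramine arrays were 1.27 and 1.24 higher, those of amitriptyline 1.03 and 1.06, those of mirtazapine 0.86 and 0.79 and those of citalopram 0.58 and 0.82. Control replicate 1, at 5.62, was the only array on which Ostn lay below the filter of 5.72.

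Ordered by mean, Ostn ran from control (5.90) through duloxetine (5.96), citalopram (6.88), mirtazapine (7.01) and amitriptyline (7.23) to imipramine (7.44). The one wide step in this order, 0.93 log2 units, lay between duloxetine and citalopram, and no array crossed it. The other steps were 0.06, 0.13, 0.22 and 0.21, beside a pooled SD within groups of 0.19. Control and duloxetine overlapped, as did citalopram and mirtazapine. The arrays of mirtazapine and amitriptyline, and those of amitriptyline and imipramine, did not overlap, but their means were apart by little more than that SD. The span of 1.54 between the lowest and highest group means lay at the 99.9th percentile of the 17467 tested genes, whose median span was 0.28; Ostn was chosen on these differences, so this rank is a description only. Since concentrations differed from 0.1 to 50 µM, this order compares drugs as they were dosed.

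**Figure D1:**
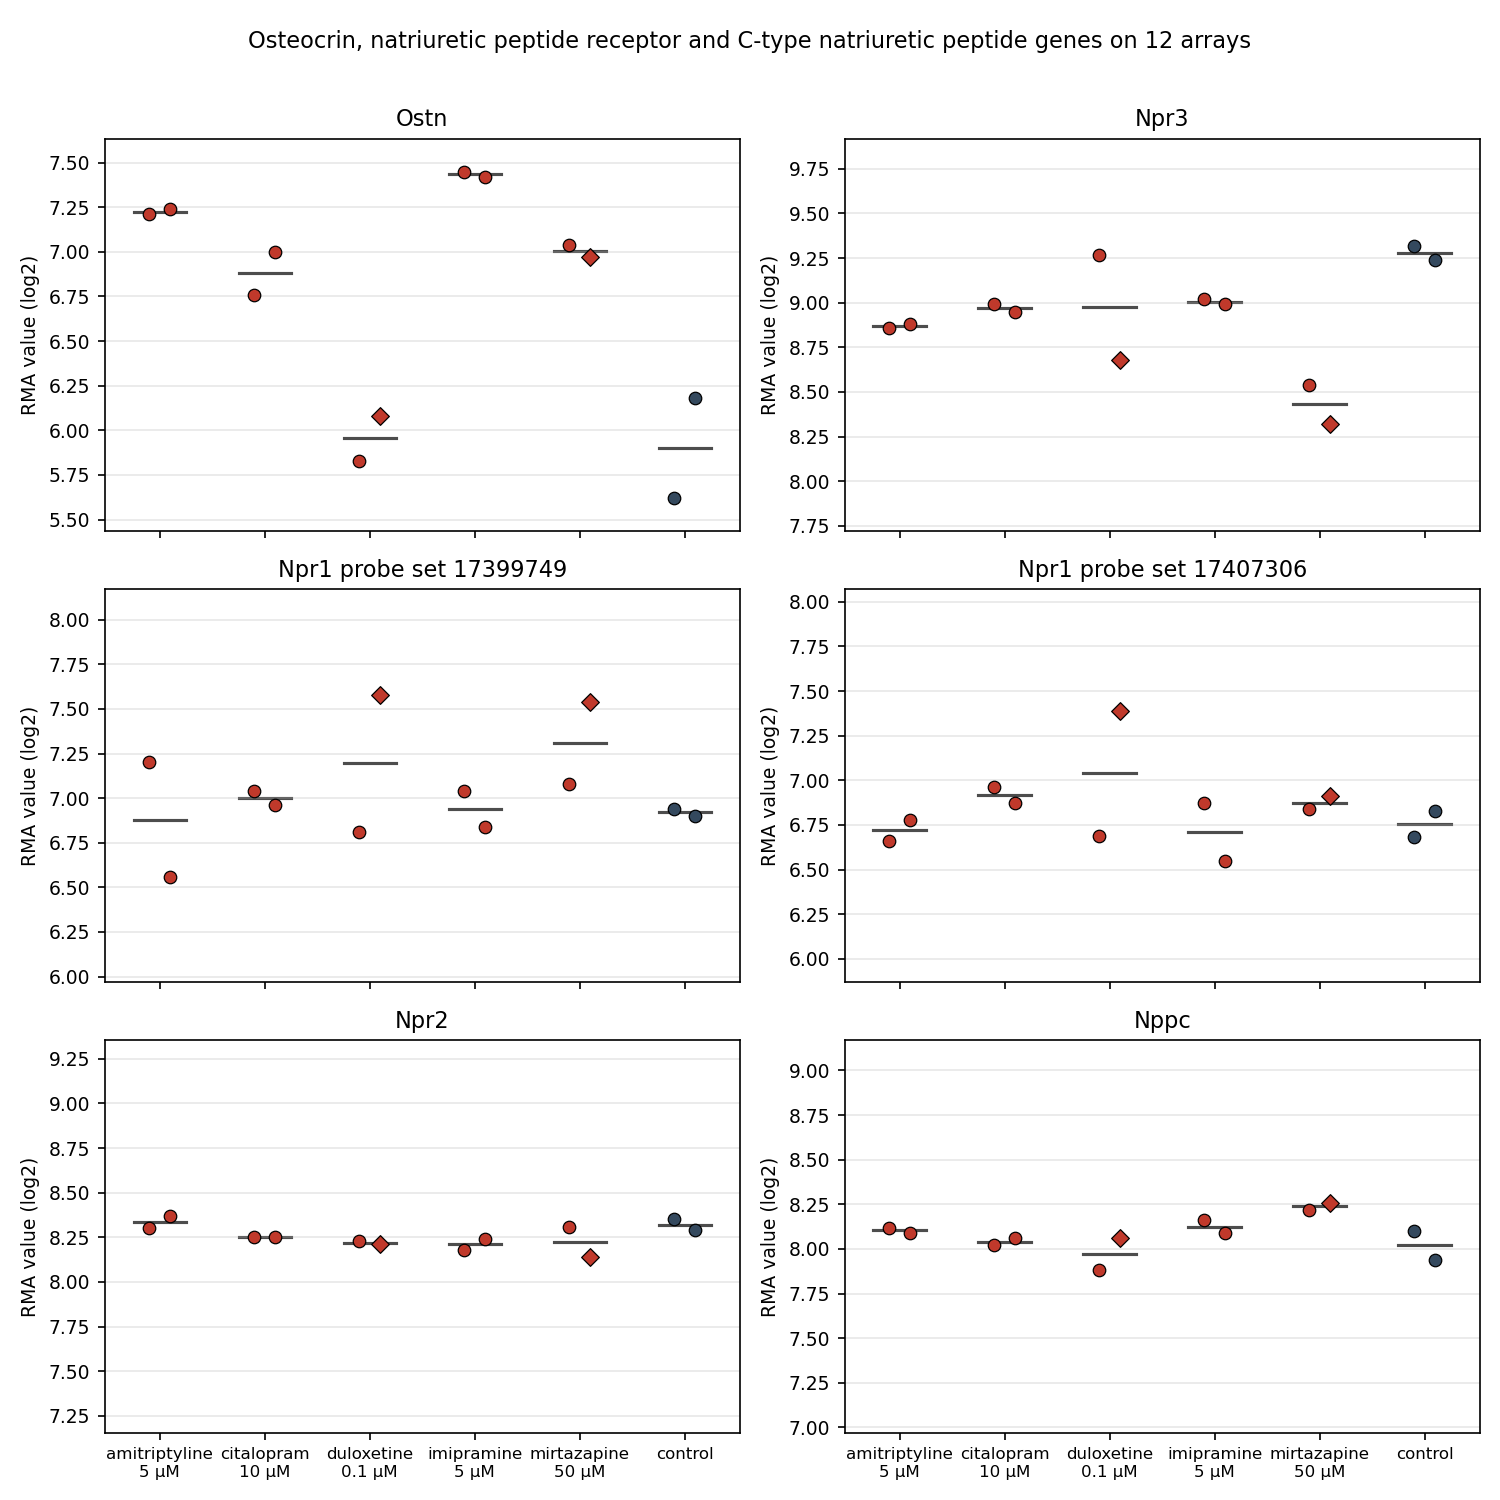
RMA log2 value (vertical axis, each panel covering 2.2 log2 units) of the 6 probe sets of the 5 genes on every array, by treatment (horizontal axis: drugs in red, control in dark blue on the right). Circles are arrays, diamonds are the replicates 2 of duloxetine and mirtazapine, whose profiles stand apart, and bars are group means. Ostn is higher on all 8 arrays of 4 drugs than on the control arrays, and Npr3 is lowest on the mirtazapine arrays (8.54 and 8.32).

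Amitriptyline and imipramine were the only drugs given at the same concentration and time. Both are tricyclic amines with a dimethylamino side chain, which is attached to a nitrogen of the central ring in imipramine and through a double bond to a carbon of that ring in amitriptyline. Ostn averaged 7.44 under imipramine and 7.23 under amitriptyline, a difference of 0.21 (95% interval −0.16 to 0.58). This pair of drugs was compared for all 5 genes, and limma called 0 of them (adjusted p = 1 for each over 17467 genes; 0 also at an unadjusted p under 0.05). Over all genes, 0% were called in this comparison and 1.21% had an unadjusted p under 0.05. For Npr3 imipramine minus amitriptyline was 0.14 (−0.23 to 0.50), for Npr2 −0.13 (−0.32 to 0.07), for Nppc 0.02 (−0.19 to 0.23) and for Npr1 0.06 (−0.53 to 0.65). The intervals leave room for a difference of up to 0.58 in Ostn, so these data do not show that the 2 tricyclics act alike. The Npr3 arrays of imipramine were both higher, and its Npr2 arrays both lower, than those of amitriptyline. Of all genes, 20.3% were higher and 12.4% lower in this way.

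The ligand gene Nppc varied little. It read 8.22 and 8.26 under mirtazapine, 8.16 and 8.09 under imipramine, 8.12 and 8.09 under amitriptyline, 8.02 and 8.06 under citalopram and 7.88 and 8.06 under duloxetine, against 8.10 and 7.94 in control. Only the mirtazapine arrays were both above control. That difference was 0.22 (95% interval 0.01 to 0.43), with an adjusted p of 0.211 in limma over all genes (unadjusted p = 0.0429), and differences under the other drugs lay between −0.05 and 0.11. Under mirtazapine 22.6% of all genes had both arrays above both control arrays.

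The genes of the other ligands were also not called under any drug. Nppa, the atrial natriuretic peptide gene, was highest on duloxetine replicate 2 (7.76) and mirtazapine replicate 2 (7.68), against 7.37 on both control arrays, and its differences lay between −0.12 and 0.23 (SE 0.13). Nppb, the brain natriuretic peptide gene, was highest on the same arrays (6.79 under mirtazapine and 6.74 under duloxetine), against 6.04 and 6.49 in control, with differences between 0.01 and 0.33 (SE 0.20). Both of these arrays stand apart from the other 10 in their whole profile. They lay at 32.6 and 36.4 on the first principal component, where the others lay between −13.3 and 3.94. Their mean correlation with the other arrays was 0.978 and 0.977, against 0.988 to 0.993 elsewhere, and their upper quartiles of log2 values were 8.21 and 8.20, against 8.31 to 8.37. The part of these arrays in the Nppa and Nppb levels was not tested beyond leaving them out: without both, the differences of Nppb under mirtazapine and duloxetine were 0.14 and −0.02.

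Among the receptors, Npr3, the clearance receptor gene, was lower under mirtazapine. It read 8.54 and 8.32 there, 8.86 and 8.88 under amitriptyline, 8.99 and 8.95 under citalopram and 9.02 and 8.99 under imipramine. Under duloxetine the 2 arrays were 9.27 and 8.68, and the control arrays were 9.32 and 9.24. Both arrays of mirtazapine, amitriptyline, citalopram and imipramine were below both control arrays, whereas duloxetine replicate 1 lay among them and replicate 2, one of the arrays that stand apart, lay below. The share of all genes with both arrays below control in each of these 4 drugs was 7.56%, and these comparisons share the same 2 control arrays.

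Npr3 fell by 0.85 ± 0.16 log2 units under mirtazapine (SE; 1.80-fold lower, 95% interval −1.21 to −0.49, adjusted p = 0.0344 in limma). It was the 1 gene called of the 4 tested here (Npr1, Npr2, Npr3 and Nppc), where 1.74% of all genes were called and 1.47% were called as lower. The mirtazapine arrays lay 0.70 and 0.92 below the lower control array. The call was close to the threshold, and adjusted p-values over the alternatives ran from 0.0042 to 0.222. It was lost with no filter (0.0543), with every probe set in the fit (0.0579) and with only the 4 arrays of these groups (0.0814). Those settings called 191, 152 and 14 of all genes under mirtazapine, against 304 in the fit used here. The Npr3 call was also lost without mirtazapine replicate 2 (−0.74), control replicate 1 (−0.81) or control replicate 2 (−0.89), which each leave 1 array in a group compared. Leaving out any 1 array of amitriptyline, citalopram or imipramine ended it too. In each of these fits fewer of all genes were called as well. Without both arrays that stand apart, a fit that holds 1 mirtazapine array, the difference was −0.74.

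The other drugs gave smaller differences in Npr3, and none passed. They were −0.41 under amitriptyline (95% interval −0.77 to −0.05, adjusted p = 0.688), −0.31 under citalopram (−0.67 to 0.05, adjusted p = 1), −0.31 under duloxetine (−0.67 to 0.06, adjusted p = 0.514) and −0.28 under imipramine (−0.64 to 0.09, adjusted p = 1). For each of these drugs limma called 0 of the 4 genes, and an unadjusted p under 0.05 was reached once, by Npr3 under amitriptyline (0.0299). Of all genes, 6.14% had such a p under amitriptyline, 4.44% under citalopram, 10% under duloxetine and 4.56% under imipramine. Over all genes, 0% were called under amitriptyline, citalopram and duloxetine and 0.0286% under imipramine. Without both arrays that stand apart, the amitriptyline difference was the same size and was called (−0.41, adjusted p = 0.0375), where 1.31% of all genes were called. Without duloxetine replicate 1, the duloxetine difference was −0.60 and was called (adjusted p = 0.0237). That fit holds 1 duloxetine array, replicate 2, which stands apart, and takes its spread from the other groups; it called 11.7% of all genes under duloxetine, against 0% with all arrays, so nothing particular to Npr3 is read from this call.

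In the order of group means, Npr3 ran from mirtazapine (8.43) through amitriptyline (8.87), citalopram (8.97), duloxetine (8.98) and imipramine (9.01) to control (9.28). The steps next to mirtazapine (0.44) and next to control (0.28) were wider than the pooled SD of 0.18, and the steps between, at 0.10, 0.01 and 0.03, were narrower. Its span of 0.85 was at the 98.5th percentile of tested genes. This order was not the reverse of that of Ostn: imipramine had the highest Ostn and the Npr3 mean nearest to control, and mirtazapine, with the lowest Npr3, had a lower Ostn mean than both tricyclics. The place of duloxetine rests on replicate 2 (8.68), which stands apart. Without that array the duloxetine difference in Npr3 was −0.01, nearer to control than that of imipramine.

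Npr2, the guanylyl cyclase receptor gene for C-type natriuretic peptide, was the steadiest of the 5 genes. Its values were 8.30 and 8.37 under amitriptyline, 8.25 and 8.25 under citalopram, 8.23 and 8.21 under duloxetine, 8.18 and 8.24 under imipramine and 8.31 and 8.14 under mirtazapine, against 8.35 and 8.29 in control. The arrays of citalopram, duloxetine and imipramine were all below both control arrays, by small amounts. Differences lay between −0.11 and 0.02 (SE 0.09), with adjusted p-values from 0.498 to 1. The span of group means, 0.13, was at the 9.49th percentile of tested genes, below the median span of 0.28.

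Npr1, the guanylyl cyclase receptor gene for atrial and brain natriuretic peptides, was the most variable between arrays of 1 group. Its brighter probe set, the one in the fit, read 7.08 and 7.54 under mirtazapine, 6.81 and 7.58 under duloxetine, 7.04 and 6.96 under citalopram, 7.04 and 6.84 under imipramine and 7.20 and 6.56 under amitriptyline, against 6.94 and 6.90 in control. The highest values were on duloxetine replicate 2 and mirtazapine replicate 2, the arrays that stand apart. Differences lay between −0.04 and 0.39 (SE 0.26), with adjusted p-values of 0.370 under mirtazapine and 0.665 to 1 under the other drugs. Without both arrays that stand apart, the mirtazapine difference in Npr1 was 0.16 and that of duloxetine −0.11.

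The second probe set of Npr1 gave a smaller mirtazapine difference. It read 6.84 and 6.91 under mirtazapine and 6.69 and 7.39 under duloxetine, against 6.68 and 6.83 in control, with differences of 0.12 and 0.29 (SE 0.20). Duloxetine replicate 2 was again its highest array. Under mirtazapine and citalopram the arrays of both probe sets were above both control arrays. The citalopram differences were 0.08 and 0.16, and neither was called (adjusted p = 1).

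Counted together, 1 of the 4 genes tested (Npr3) was below both control arrays under amitriptyline, where 24.2% of all genes were. Under citalopram 2 were below (Npr2 and Npr3; 22.1% of all genes) and 1 above (Npr1; 17% of all genes). Under duloxetine 1 was below (Npr2; 18.3%), under imipramine 2 (Npr2 and Npr3; 19.1%), and under mirtazapine 1 (Npr3; 30.6%) with 2 above (Npr1 and Nppc; 22.6%). With 4 genes, nothing particular to them is read from these counts.

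**Figure D2:**
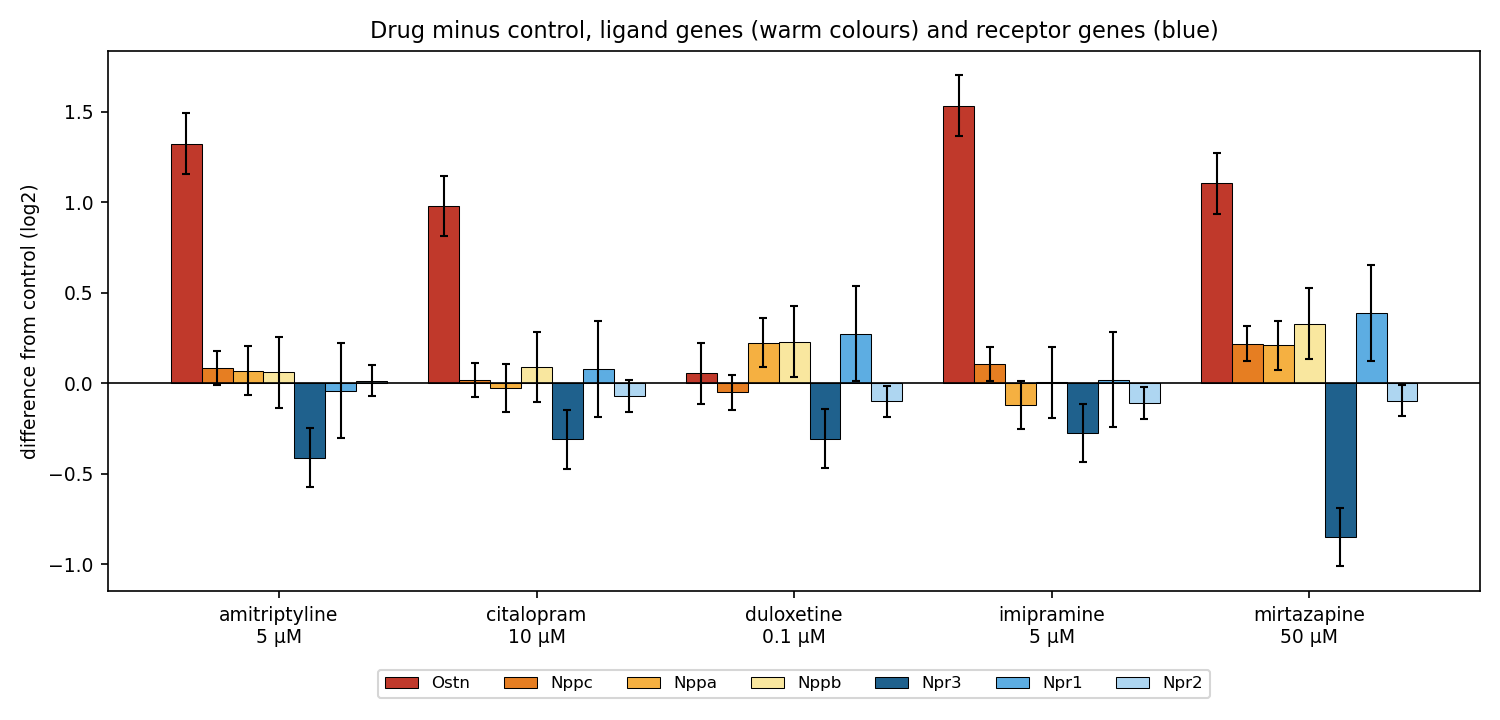
Difference from control (vertical axis, log2 units; bars show the fitted difference and whiskers ± 1 SE) of Ostn, Nppc, Nppa, Nppb, Npr3, Npr1 and Npr2 under each drug. Ostn bars reach 0.98 to 1.54 under 4 drugs and 0.06 under duloxetine, and the Npr3 bar under mirtazapine (−0.85) is the one called among the genes tested.

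The proteases that mature natriuretic peptides and the enzymes that break them down were not called under any drug. Of the 7 genes in this list with Nppa and Nppb, 0 were called in limma, and 1 had an unadjusted p under 0.05, under mirtazapine, where 22.4% of all genes did. The list median was 0.18 under mirtazapine, −0.10 under imipramine and 0.06 under each of the other drugs, beside medians of all genes between −0.04 and −0.01. The gene at an unadjusted p under 0.05 was Mme, encoding neprilysin, a peptidase that cleaves natriuretic peptides. Mme read 7.18 and 7.11 under mirtazapine, against 7.63 and 7.63 in control (difference −0.49 ± 0.12 SE, adjusted p = 0.0718). Ide, encoding insulin-degrading enzyme, had its lowest p under citalopram (0.29 ± 0.13, adjusted p = 1).

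The other sources of cyclic GMP, soluble and membrane guanylyl cyclases and the nitric oxide synthases, gave 0 calls among 10 tested genes, while Gucy1b2 and Gucy2f lay below the filter. At an unadjusted p under 0.05 there were 2 of 10, both under mirtazapine, a number near the 22.4% of all genes with such a p there: Nos1, the neuronal nitric oxide synthase gene (−0.39 ± 0.12, adjusted p = 0.125), and Nos3, the endothelial one (0.36 ± 0.16, adjusted p = 0.219). List medians lay between −0.05 and 0.09 for the 5 drugs.

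Abcc4 was the 1 called gene of the cyclic GMP pathway. It encodes an exporter of cyclic nucleotides and other organic anions, and it belongs to the list of cyclic GMP effector and export genes. Of this list 12 of 15 genes were tested (Cnga1, Cnga2 and Cngb3 lay below the filter). The 12 include Gnai1, Gnai2 and Gnai3, genes of inhibitory G protein subunits, which neither read nor export cyclic GMP. Abcc4 read 8.64 and 8.28 under mirtazapine, 8.64 and 8.54 under imipramine, 8.44 and 8.59 under amitriptyline and 8.42 and 8.50 under citalopram. It read 7.58 and 7.31 under duloxetine, against 7.16 and 7.74 in control. The arrays thus fell into the same sets as for Ostn, with both duloxetine arrays between the control arrays and the other 8 above them. Of all genes, 2.79% were likewise above both control arrays under imipramine, amitriptyline, mirtazapine and citalopram, whatever their duloxetine values. A link between Abcc4 and Ostn was not tested.

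Abcc4 rose by 1.01 ± 0.19 log2 units under mirtazapine (2.01-fold, adjusted p = 0.0303), where 0.269% of all genes were called as higher. Its differences under imipramine (1.14, adjusted p = 0.0907), amitriptyline (1.07, adjusted p = 0.0932) and citalopram (1.01, adjusted p = 0.326) were as large or larger without passing, and under duloxetine the difference was −0.01. The mirtazapine call ended without control replicate 1 (0.72, adjusted p = 0.189), without mirtazapine replicate 2 (1.19, adjusted p = 0.104), without any 1 array of amitriptyline, citalopram or imipramine (adjusted p 0.0599 to 0.0678), with array weights (0.0715), with every probe set (0.0521) and with only the 4 arrays of these groups (0.113). Over its alternatives the adjusted p ran from 0.0162 to 0.189. In each setting where the Abcc4 call ended, fewer of all genes were called under mirtazapine than the 304 of the fit used here. The remaining genes of this list, among them the kinase genes and the cyclic nucleotide-gated channels, gave 0 calls, with list medians between −0.01 and 0.14. Prkg1, named after its values were seen as the kinase gene that acts below Npr2, read 7.65 and 6.82 under mirtazapine, against 7.93 and 7.97 in control (−0.72, adjusted p = 0.156). It was low on duloxetine replicate 2 as well (7.36).

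The list of cyclic GMP phosphodiesterase genes gave 0 calls among 14 tested genes, with Pde6c below the filter. The 14 include Pde6d, Pde6g and Pde6h, whose proteins do not themselves break cyclic GMP down. Under mirtazapine 5 of the 14 were lower at an unadjusted p under 0.05 and 0 higher, with a list median of −0.13, where 22.4% of all genes had such a p. The lowest p-values were those of Pde1b (−0.37 ± 0.09, adjusted p = 0.0673) and Pde1a (−0.79 ± 0.20, adjusted p = 0.0813), which encode phosphodiesterases activated by calcium and calmodulin. Pde1b read 8.81 and 8.87 under mirtazapine, against 9.23 and 9.18 in control, and Pde1a read 7.86 and 7.27, against 8.37 and 8.33. Under the other drugs list medians lay between −0.07 and 0.00. Over the 43 pathway genes tested, limma called 1 under mirtazapine and 0 under each other drug (1.74% of all genes under mirtazapine), and at an unadjusted p under 0.05 there were 4 higher and 9 lower under mirtazapine. At that threshold there were 2 higher and 1 lower under amitriptyline, 1 higher and 1 lower under citalopram, the same numbers under imipramine, and 1 higher and 0 lower under duloxetine.

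**Figure D3:**
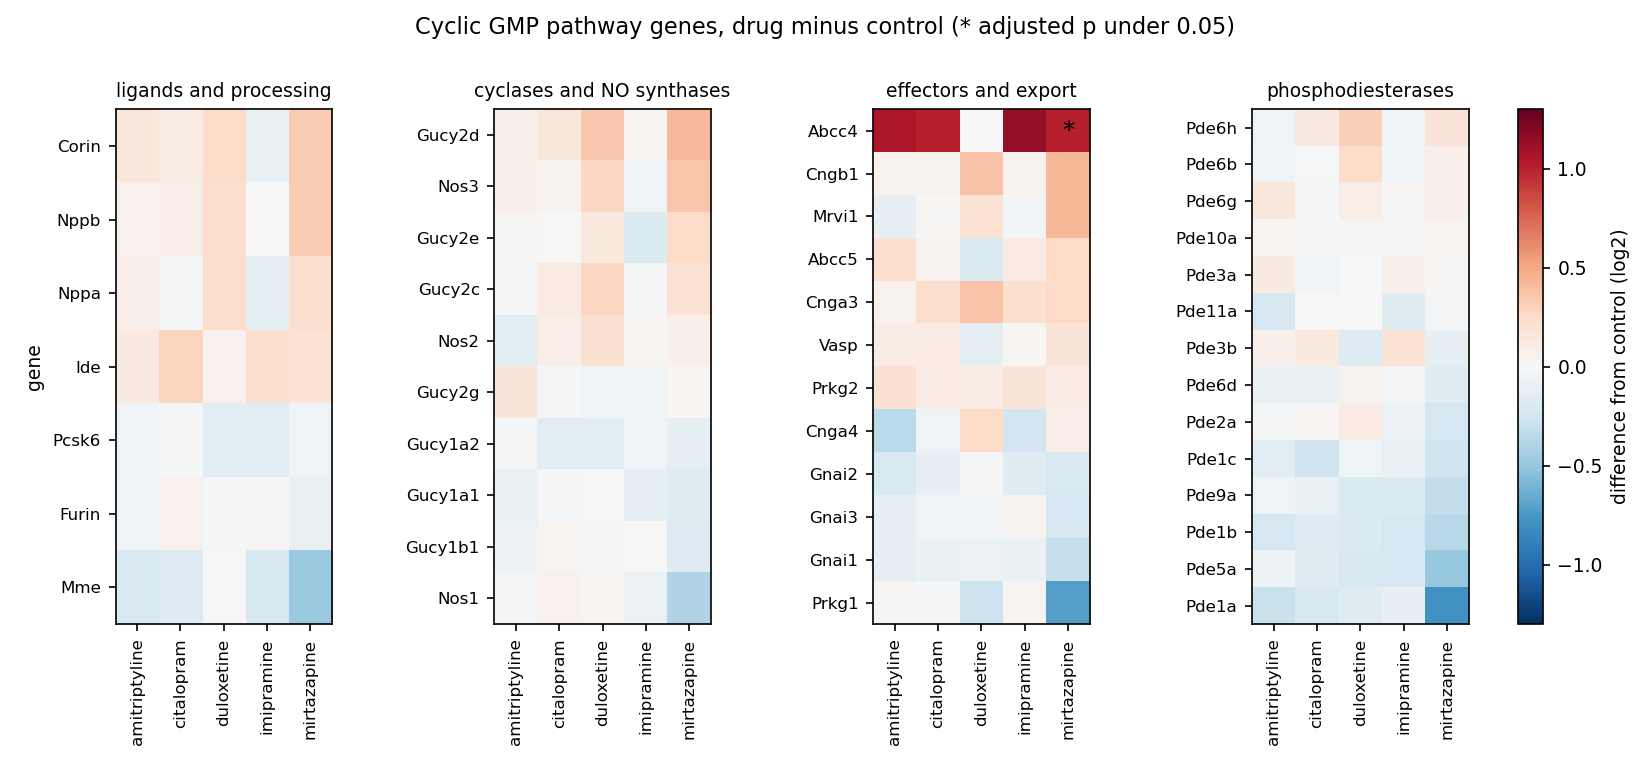
Difference from control in log2 units (colour, red higher and blue lower) of the tested genes of the 4 cyclic GMP lists (rows) under each drug (columns). The asterisk marks the 1 call, Abcc4 under mirtazapine, and the Abcc4 row is near 1 under 4 drugs and −0.01 under duloxetine.

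Genes placed upstream of osteocrin in other systems were then examined, and limma called 0 of 42 under any drug. The MEF2 factor and class II deacetylase list had 7 tested genes (Mef2b had no probe set with 1 symbol), and its medians lay between 0.00 under duloxetine and 0.09 under mirtazapine. Its lowest p-values were those of the deacetylase genes Hdac9 under duloxetine (−0.30 ± 0.13, adjusted p = 0.494) and Hdac7 under mirtazapine (0.29 ± 0.14, adjusted p = 0.252). The 10 FoxO and insulin signalling genes had medians between −0.02 and 0.06, with 1 higher under duloxetine and 2 lower under mirtazapine at an unadjusted p under 0.05 (10% and 22.4% of all genes, in either direction). Foxo1 under mirtazapine (−0.36 ± 0.14, adjusted p = 0.196) and Foxo4 under duloxetine (0.24 ± 0.10, adjusted p = 0.492) had the lowest p-values.

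Activity-induced genes gave 0 calls in limma. The median of these 25 genes was −0.06 under imipramine, −0.13 under amitriptyline, 0.02 under mirtazapine, −0.10 under citalopram and −0.25 under duloxetine, and those at an unadjusted p under 0.05 were 4 lower under amitriptyline, 2 lower under citalopram, 11 lower under duloxetine, 2 lower under imipramine, and 3 higher and 3 lower under mirtazapine. Of all genes, in either direction, 6.14% had such a p under amitriptyline, 4.44% under citalopram, 10% under duloxetine, 4.56% under imipramine and 22.4% under mirtazapine. The lowest p-values belonged to the transcription factor genes Egr3 (−0.33 ± 0.09, adjusted p = 0.0922) and Fosl2 (−0.35 ± 0.10, adjusted p = 0.106), both under mirtazapine. Fos, named after its values were seen as a standard readout of neuronal activity, read 8.11 and 7.83 under imipramine and 7.13 and 7.12 under duloxetine, against 8.45 and 7.50 in control. It read 8.16 and 8.43 under mirtazapine, 7.71 and 7.59 under amitriptyline and 7.71 and 7.58 under citalopram, all within the range of the control arrays. Its control arrays were far apart, with replicate 1 the higher, whereas Ostn was lower on control replicate 1 (5.62) than on replicate 2 (6.18).

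The genes whose values ran most like Ostn over the 12 arrays were Nupr1, Cxcl1, Cdsn, Atf3, Hmox1, Rhbdd1, Pla2g2e and Ero1a. They were ranked by Pearson's r among 1772 genes whose group means spanned at least 0.5 log2 units, and these r values are a description over 12 arrays that share their groups. The 8 had r between 0.979 and 0.962, the median of the 1772 was −0.13, and 45 were above 0.9. Nupr1 encodes a stress-induced chromatin protein and Atf3 a stress-induced transcription factor. Cxcl1 encodes a chemokine, Cdsn corneodesmosin, an adhesion protein of skin, and Hmox1 the inducible heme oxygenase. Rhbdd1 encodes a rhomboid protease, Pla2g2e a secreted phospholipase and Ero1a an oxidase of the endoplasmic reticulum.

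Cdsn and Hmox1 had differences nearest in size to those of Ostn. Cdsn read 8.70 and 8.38 under imipramine, 8.50 and 8.51 under amitriptyline, 8.42 and 8.28 under mirtazapine and 8.13 and 8.10 under citalopram. It read 6.94 and 7.65 under duloxetine, against 6.90 and 7.50 in control. Hmox1 differed from control by 1.29 under imipramine, 1.28 under amitriptyline, 1.16 under mirtazapine, 1.14 under citalopram and −0.01 under duloxetine. Each of the 8 genes was lower on control replicate 1 than on control replicate 2, as Ostn was. Each was also higher under imipramine, amitriptyline, mirtazapine and citalopram than on both control arrays, as 2.79% of all genes were. The 8 were chosen for their likeness to Ostn over these same arrays, so this sharing largely follows from the choice. The differences of Rhbdd1 were the smallest of the 8 under imipramine (0.54), and those of Nupr1, Cxcl1, Atf3, Pla2g2e and Ero1a lay between 0.88 and 1.20 under that drug. The choice of genes depended on the measure: 2 of the 8 stayed among the top 8 with Spearman's rho, 5 without both arrays that stand apart and 4 over the 6 group means. Abcc4 ranked 14th, with r of 0.950.

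**Figure D4:**
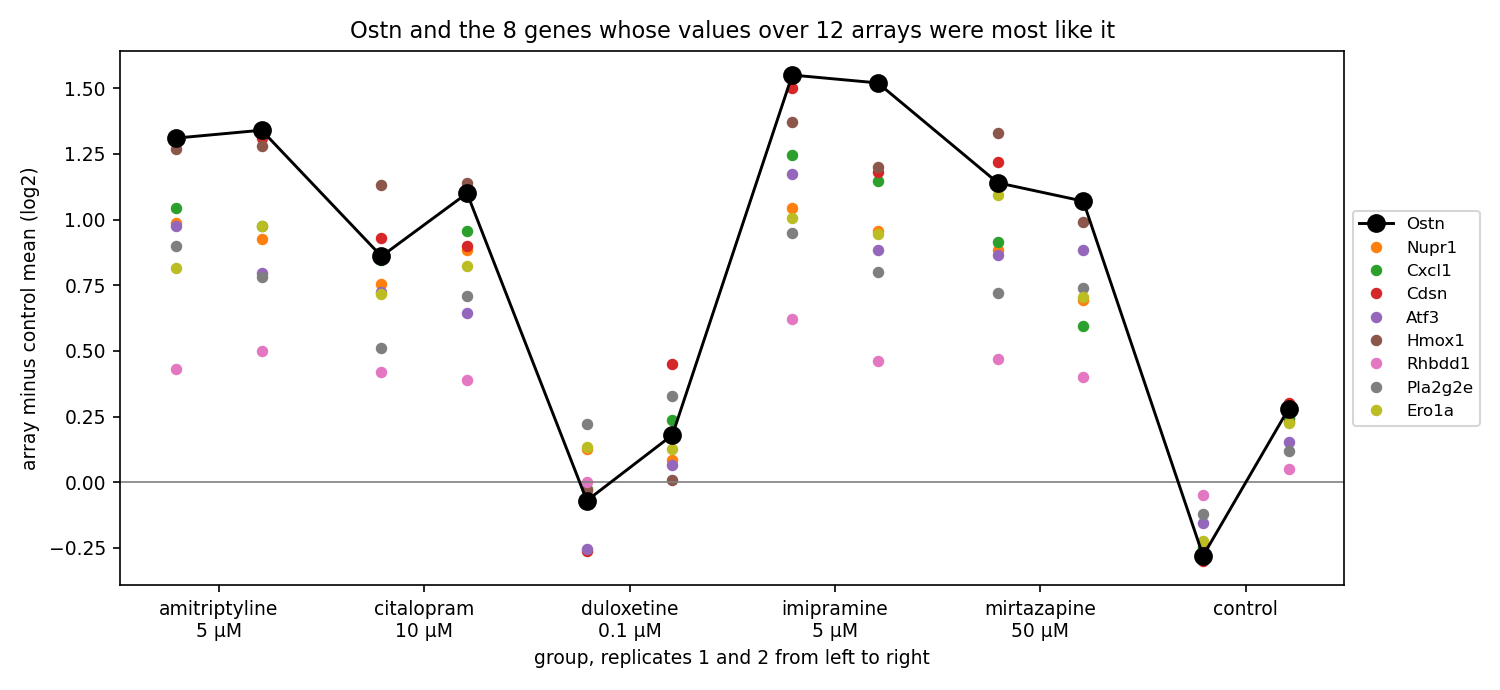
Value of each array minus the mean of the 2 control arrays (log2 units) for Ostn and the 8 genes most like it over the 12 arrays, by treatment with control last; the black line joins the Ostn values only as a guide to the eye. Arrays of 4 drugs lie above the control arrays in every gene shown, and those of duloxetine lie near the control arrays.

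Genes next to Ostn and Npr3 on the chromosome were not called. Beside Ostn, Il1rap, Gmnc and Ccdc50 had differences between −0.16 and 0.33, the highest being that of Gmnc under mirtazapine (0.33, adjusted p = 0.203), and Uts2b lay below the filter. Beside Npr3, Adamts12, Tars, Sub1 and Zfr had differences between −0.08 and 0.35, with the highest in Tars under imipramine (0.35, adjusted p = 0.944).

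Markers of the tissues that osteocrin is best known from were not called. The mean log2 of 6 tested bone markers (Dmp1 lay below the filter) was 6.28 to 6.29 on the imipramine arrays and 6.25 to 6.27 on those of amitriptyline, against 6.30 to 6.33 in control. That of 9 skeletal muscle markers (Myh1, Myh3 and Myh8 lay below the filter) was 6.71 to 6.84 under imipramine, against 6.71 to 6.80 in control. Of the bone markers, Ibsp under mirtazapine (0.31, adjusted p = 0.213) and Bglap under duloxetine (0.54, adjusted p = 0.501) had the lowest p-values. Of the muscle markers, Myf5 (0.34, adjusted p = 0.492) and Tnnt3 (0.41, adjusted p = 0.492) did, both under duloxetine. The muscle mean was 6.87 to 7.20 on the mirtazapine arrays and 6.80 to 7.18 on those of duloxetine, and the higher value of each pair is that of replicate 2, the array that stands apart. At an unadjusted p under 0.05, 4 of the 9 muscle markers were higher under mirtazapine and 2 under duloxetine. Of the 6 bone markers, 1 was higher under mirtazapine. Of all genes, in either direction, 22.4% had such a p under mirtazapine and 10% under duloxetine. The part of muscle or bone cells in the Ostn level was not tested.

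Neuron markers were present on every array: the mean of 12 genes was 10.97 to 11.07 under mirtazapine and between 11.08 and 11.21 under the other drugs, against 11.10 to 11.23 in control, with 0 calls (the lowest p-values were those of Nefl, −0.64 ± 0.15, adjusted p = 0.0635, and Gap43, −0.36 ± 0.12, adjusted p = 0.152, both under mirtazapine). Of the 12 neuron differences, 10 were negative under mirtazapine, 10 under amitriptyline, 8 under imipramine and 5 each under citalopram and duloxetine. Under mirtazapine their median was −0.10, and 3 were lower at an unadjusted p under 0.05, where 22.4% of all genes had such a p. Astrocyte and oligodendrocyte lineage markers had mostly negative differences under the 4 drugs whose Npr3 arrays were below control, while the fibroblast list was mixed. The mean of 10 astrocyte markers was 8.66 to 8.74 under mirtazapine, 8.62 to 8.76 under amitriptyline, 8.72 to 8.77 under imipramine, 8.84 to 8.91 under citalopram and 9.09 to 9.13 under duloxetine, against 9.06 to 9.13 in control. Differences of the 10 were negative in 9 under mirtazapine, 10 under amitriptyline, 10 under imipramine, 9 under citalopram and 3 under duloxetine. Under mirtazapine, where 1.74% of all genes were called and 1.47% were called as lower, limma called 4 of 85 markers, all lower: the astrocyte genes Aqp4 (−1.17 ± 0.14, adjusted p = 0.01) and Gfap (−0.60 ± 0.10, adjusted p = 0.0214), the fibroblast gene Dcn (−1.61 ± 0.20, adjusted p = 0.0115) and the oligodendrocyte lineage gene Olig1 (−0.83 ± 0.14, adjusted p = 0.0223). Each of the 4 calls ended without control replicate 1 (adjusted p 0.112 to 0.167) and without mirtazapine replicate 2 (0.0664 to 0.130). The Gfap and Olig1 calls also ended without control replicate 2 (0.0736 and 0.0903) or without either citalopram array (0.0526), with array weights (0.0597 and 0.0745) and with only the 4 arrays of these groups (0.114 and 0.0943), and that of Olig1 without both arrays that stand apart (0.0511). In these settings, except that without both arrays that stand apart, fewer of all genes were called under mirtazapine than the 304 of the fit used here. The part of the marked cell types in the Npr3 level was not tested.

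The other marker lists gave 0 further calls. The oligodendrocyte lineage mean of 8 genes was 8.02 to 8.03 under mirtazapine, 7.89 to 8.03 under amitriptyline, 7.97 to 8.08 under imipramine, 8.09 to 8.12 under citalopram and 8.75 under duloxetine, against 8.23 to 8.70 in control. The fibroblast mean of 9 genes was 7.50 to 7.52 under mirtazapine and 7.75 to 7.79 under duloxetine, against 7.55 to 7.71 in control. This mean includes the large fall of Dcn under mirtazapine: 6 of the 9 fibroblast differences were positive there, with a median of 0.19. At an unadjusted p under 0.05, 3 were higher and 2 lower there, where 22.4% of all genes had such a p in either direction. Of the fibroblast differences, 7 were positive under both citalopram and duloxetine, 6 under amitriptyline and 4 under imipramine. All 8 oligodendrocyte lineage differences were negative under mirtazapine, amitriptyline, citalopram and imipramine, and 1 was under duloxetine. Under mirtazapine the median difference was 0.20 for 8 endothelial genes, 0.25 for 10 pericyte and smooth muscle genes, 0.22 for 10 microglia and macrophage genes and 0.21 for 5 ependymal and choroid plexus genes. Under duloxetine these medians were 0.20, 0.17, 0.07 and 0.26, and under the other drugs between −0.09 and 0.12. The medians of all genes were −0.035 under mirtazapine and −0.015 under duloxetine. In each of these lists replicate 2, which stands apart, had the higher mean of the pair under both drugs. The lowest p-values in these lists were those of Flt1 (0.34) and Tie1 (0.28) under duloxetine, Pdgfrb (−0.61) under amitriptyline and Acta2 (0.51) under duloxetine, Cd68 (0.46) under mirtazapine and Csf1r (0.32) under duloxetine, and Folr1 (0.36) under mirtazapine and Kl (0.36) under duloxetine, with adjusted p between 0.102 and 0.518.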

How the data were processed

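Expression was measured on 12 Affymetrix arrays, 2 for each of 5 drugs and control. The deposited values are log2 intensities, which the authors made with Affymetrix Expression Console and RMA, per the submitters' processing notes; no version, setting or build is stated there. Such values carry no read depth, and precision rests on the number of arrays: for the median gene a difference from control had a 95% interval of ± 0.282. In the platform annotation 23521 of 41345 probe sets carried a single gene symbol, 1814 several and 16010 none. By gene number 23328 of the first kind were found in the RefSeq gene table, with 0 changes of symbol.

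For each gene the probe set of highest mean was used. It entered the fit if that mean was at or above 5.72, the 30th percentile of all probe sets, as 17467 of 22180 genes did. A single limma model (version 3.58.1 under R 4.3.3, lmFit then eBayes with no trend) took all 12 arrays, with 6 residual and 3.86 prior degrees of freedom, and was checked on simulated data. P-values were two-sided, adjusted over the 17467 genes by Benjamini-Hochberg and called under 0.05. Figures used matplotlib 3.10.9 (Python 3.11.15).

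The genes described and all gene lists were chosen with earlier results of these data known. Genes named beside the 5, Nppa and Nppb are the called genes of a list (up to 6 by p) or else the 2 of lowest p, and the 8 of highest Pearson's r with Ostn. For that rank genes had to pass the filter and have group means spanning 0.5 log2 units, and symbols of predicted genes, clones or small RNAs were skipped. Chromosomal neighbours were those adjoining in the RefSeq table. The settings varied were the filter (none, or the 50th percentile), the probe sets (all of them), the eBayes step (trend and robust), weights on arrays, quantile normalization done again, the replicate number as a block, a fit of only the arrays compared, and arrays left out, singly or the pair that stands apart.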

Additional observations from a re-analysis of the deposited data

How the results depend on the processing

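With 2 arrays a group, 1 array could move most values. Leaving out single arrays gave Ostn differences of 1.26 to 1.82 for imipramine, 1.05 to 1.61 for amitriptyline, 0.83 to 1.39 for mirtazapine, 0.70 to 1.26 for citalopram and −0.23 to 0.34 for duloxetine; the lowest and highest come from leaving out a control array. The same gave Npr3 −0.60 to −0.01 under duloxetine and −0.96 to −0.74 under mirtazapine. Calls among Npr1, Npr2, Npr3 and Nppc ranged from 0 to 1 under duloxetine and mirtazapine, those of pathway genes from 0 to 1 under amitriptyline and imipramine, 0 to 3 under duloxetine and 0 to 6 under mirtazapine, and those of regulators from 0 to 2 under duloxetine and mirtazapine. Calls of cell type markers ranged from 0 to 2 under amitriptyline, 0 to 8 under duloxetine, 0 to 1 under imipramine and 0 to 10 under mirtazapine. Calls over all genes moved with the array left out as well, so nothing particular to these lists is read from these ranges. Under duloxetine only the fit without replicate 1, which holds 1 duloxetine array, gave any call over all genes. Npr3 under mirtazapine stayed at −0.85 but was not called with no filter, every probe set or only the 4 arrays compared, which each left 0 calls of the 4 genes. Without both arrays that stand apart, Npr3 was called under amitriptyline (−0.41, 1 call). Markers then had 7 calls under amitriptyline and 2 under imipramine, and pathway genes 1 under each. Over all genes that fit called 228 under amitriptyline and 84 under imipramine. For mirtazapine and duloxetine it holds 1 array each. With array weights, markers had 6 calls under amitriptyline, 2 each under imipramine and mirtazapine and 1 under citalopram. Pathway genes had 1 each under amitriptyline, citalopram and imipramine and 0 under mirtazapine. In that setting all genes had 222 calls under amitriptyline, 128 under imipramine, 110 under mirtazapine and 76 under citalopram. With trend and robust, markers had 3 calls under amitriptyline and 1 under imipramine, where all genes had 28 and 17. With a second quantile normalization markers had 2 and 1, where all genes had 18 and 18. The 50th percentile filter gave 2 marker calls under amitriptyline, where all genes had 17. Each of these 3 settings gave 2 pathway calls under mirtazapine, every probe set gave 0, and the 4 arrays alone gave 0 pathway and 2 marker calls. Over all genes, calls under mirtazapine were 441 with trend and robust, 348 with the second normalization and 440 with the 50th percentile filter. They were 152 with every probe set and 14 with the 4 arrays alone. The cause of these moves was not tested. The labels do not say whether a replicate number marks a shared culture or batch, and the fit used no pairing. Deviations correlated between −0.44 and 0.71 over 15 pairs of groups, above 0.1 in 4. With the replicate block, Npr3 under mirtazapine was −0.85 (adjusted p = 0.0334) and the whole table had 234 calls under mirtazapine, against 304 without it, and 3 under imipramine, against 5. No direction of a called value reversed under the settings tried.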
